A study of Mus musculus with 10 samples.

Results

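The 9 genes Adcy1 to Adcy9 encode the membrane-bound adenylyl cyclases, and they were looked up by symbol among the 55385 gene identifiers of each library. All 9 were found. They were chosen with the difference between the lines already known, so their values in that comparison are a description. How many of them a test over all genes called is given only beside the share it called of all genes, and nothing is read from it. RNA had been sequenced from mouse melanoma cells in culture, with 5 libraries of the parental line WT31 and 5 of its subline WT31_P5IV. WT31 is a cell line from melanoma of Tyr::NrasQ61K/°; INK4a-/- mice, in which mutant NRAS is driven by the tyrosinase promoter and thus in pigment cells, and which lack INK4a. WT31_P5IV was obtained from it by 5 hepatic passages, in which cells were injected into a vein of mice, recovered from liver metastases and expanded in culture. The subline derives from the line with these alleles, and its genotype was not examined here. Both groups were untreated and were harvested sub-confluent from culture. Each group is 1 cell line, so differences between lines that are unrelated to the passaging route cannot be told apart from those that are, and the 5 biological replicates of a group are cultures of that line, whose spread is what any p-value here measures.

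Adenylyl cyclases make the second messenger cAMP from ATP. Hormone receptors that couple to the G protein Gs switch them on, and receptors that couple to Gi switch several of them off. The isoforms differ in what else they respond to. Adcy1, Adcy3 and Adcy8 respond to calcium through calmodulin, Adcy2, Adcy4 and Adcy7 are stimulated by the beta-gamma subunits of G proteins, Adcy5 and Adcy6 are inhibited by Gi and by calcium, and Adcy9 is known for its poor response to forskolin. In pigment cells cAMP is best known as the messenger of the melanocortin receptor Mc1r, which acts through protein kinase A and CREB on Mitf and the pigment enzymes.

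Among the isoforms with enough counts to be tested, Adcy2, Adcy3 and Adcy9 had the largest differences between the lines, and for these the sequence around the start of the gene is shown, since the readout is the RNA that starts there. The windows are from RefSeq on GRCm38.p6 and hold 250 bases before and 50 after an annotated start, of 300 bases in all. RefSeq windows were matched for 7 of the 9 genes (all but Adcy6 and Adcy8), with 10 windows in total. Capitals mark a match to a CRE (TGACGTCA), its core (TGACG, which is also part of the full site), an E-box (CACGTG) or an M-box (CATGTG) on either strand.
Adcy2, chr13:68999492-68999791, minus strand: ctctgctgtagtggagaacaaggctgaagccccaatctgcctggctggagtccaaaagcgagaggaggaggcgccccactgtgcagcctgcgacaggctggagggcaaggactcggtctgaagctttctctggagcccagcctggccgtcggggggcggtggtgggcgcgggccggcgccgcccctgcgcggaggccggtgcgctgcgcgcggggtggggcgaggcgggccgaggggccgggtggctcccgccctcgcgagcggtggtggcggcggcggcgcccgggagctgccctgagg
Adcy3, chr12:4133147-4133446, plus strand: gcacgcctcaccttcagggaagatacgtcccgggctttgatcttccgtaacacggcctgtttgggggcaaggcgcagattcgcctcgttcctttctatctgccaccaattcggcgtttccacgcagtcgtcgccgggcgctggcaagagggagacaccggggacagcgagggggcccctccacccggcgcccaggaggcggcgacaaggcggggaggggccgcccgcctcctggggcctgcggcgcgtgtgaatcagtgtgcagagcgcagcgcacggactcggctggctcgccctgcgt
Adcy3, chr12:4133903-4134202, plus strand: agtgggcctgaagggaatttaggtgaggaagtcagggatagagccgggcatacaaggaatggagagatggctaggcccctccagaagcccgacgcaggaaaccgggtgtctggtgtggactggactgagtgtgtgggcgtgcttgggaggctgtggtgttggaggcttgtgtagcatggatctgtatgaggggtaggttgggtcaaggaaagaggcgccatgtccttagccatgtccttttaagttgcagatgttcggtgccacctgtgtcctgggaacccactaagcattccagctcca
Adcy9, chr16:4420449-4420748, minus strand: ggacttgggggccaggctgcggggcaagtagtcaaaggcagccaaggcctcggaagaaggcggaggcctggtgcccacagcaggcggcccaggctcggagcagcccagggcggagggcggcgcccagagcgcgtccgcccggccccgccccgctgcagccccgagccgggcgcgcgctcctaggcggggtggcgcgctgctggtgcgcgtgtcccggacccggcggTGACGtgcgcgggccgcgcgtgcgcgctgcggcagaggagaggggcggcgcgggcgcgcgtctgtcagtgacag
The Adcy2 window had a GC content of 75% and 32 CpG dinucleotides, and the Adcy9 window had 78.3% and 42. The first Adcy3 window had 68.7% and 33, the second 56% and 7. Over 32851 mouse windows of the same length the medians were 52.7% and 7. The CRE core was found in the Adcy9 window, and no match in the windows of Adcy2 and Adcy3. The full CRE was in 1.79% of all windows, the core in 20.8%, the E-box in 7.15% and the M-box in 14.2%.

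The libraries were of similar depth, with 24255172 to 25750388 estimated counts each. Where a gene is compared between lines, its expression is given as CPM, the counts relative to library sizes scaled by the TMM method. Where genes are compared with each other, it is given as TPM, which are corrected for transcript length. edgeR's filter on low counts kept 13620 genes, and 9327 of them were called at an adjusted p under 0.05 by its quasi-likelihood test. The first principal component separated the lines and held 74.5% of the variance. Melanocyte markers were abundant in both lines, with a summed level of 19058 to 20756 CPM in WT31 and 25509 to 29556 CPM in WT31_P5IV. The 8 markers went both ways. Pmel, Dct, Tyr and Gpnmb were called higher in WT31_P5IV, with Dct at a mean of 5893 CPM in WT31 and 10233 CPM in WT31_P5IV. Sox10 and Tyrp1 were called lower, with Tyrp1 at 3041 and 1564 CPM. Mitf and Mlana were not called. Of the markers of other cells, 8 of leukocytes summed to 0.833 to 2.18 CPM in WT31 and 3.50 to 5.08 CPM in WT31_P5IV, with Clec4f, Cd14 and Fcgr1 at 0 counts and Cd68 higher in WT31_P5IV in the test. The 7 hepatocyte markers summed to 0.227 to 0.554 and 0.402 to 1.18 CPM. The 7 endothelial markers summed to 0.707 to 1.18 and 1.07 to 1.89 CPM, with Cdh5 and Lyve1 at 0 counts. Of these only Fcgr2b was tested, and it was higher in WT31_P5IV. Of the rest, Stab2 had a lower mean in WT31_P5IV, and Pecam1, Kdr and Emcn had higher ones. The 7 stellate cell and fibroblast markers summed to 1.97 to 2.63 and 3.20 to 3.66 CPM. Of the 3 tested, Acta2 and Col1a1 were higher in WT31_P5IV and Pdgfrb was not called (log2 fold change −0.18, SE 0.31). Des, Lrat and Dcn, not tested, had lower means in WT31_P5IV, and Reln had a higher one. The part of these small differences in the results below was not tested.

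In WT31, Adcy6 was the most abundant isoform at 13.7 ± 1.71 TPM (SD, n = 5). It was followed by Adcy3 at 5.54 ± 0.608 TPM, Adcy2 at 3.96 ± 0.557 TPM, Adcy9 at 2.08 ± 0.326 TPM and Adcy7 at 0.490 ± 0.102 TPM. Each of these isoforms lay above the next one in all 5 libraries, without overlap. Adcy1 was next at 0.0481 ± 0.0274 TPM and overlapped Adcy5. Adcy5, Adcy8 and Adcy4 were at or under 0.0344 TPM in every library and could not be ordered.

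In WT31_P5IV, Adcy6 was again first at 16.6 ± 0.766 TPM (SD, n = 5) and Adcy3 second at 11.1 ± 0.558 TPM. Adcy9 at 2.72 ± 0.646 TPM and Adcy7 at 0.525 ± 0.172 TPM took the next ranks. Adcy2, at 0.0907 ± 0.0268 TPM, was now below Adcy7 and above Adcy1, which was at 0.0186 ± 0.0151 TPM. The order of Adcy6, Adcy3, Adcy9, Adcy7, Adcy2 and Adcy1 held in all 5 libraries without overlap of neighbouring isoforms. Adcy1, Adcy5, Adcy8 and Adcy4 did not separate from each other.

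**Figure D1:**
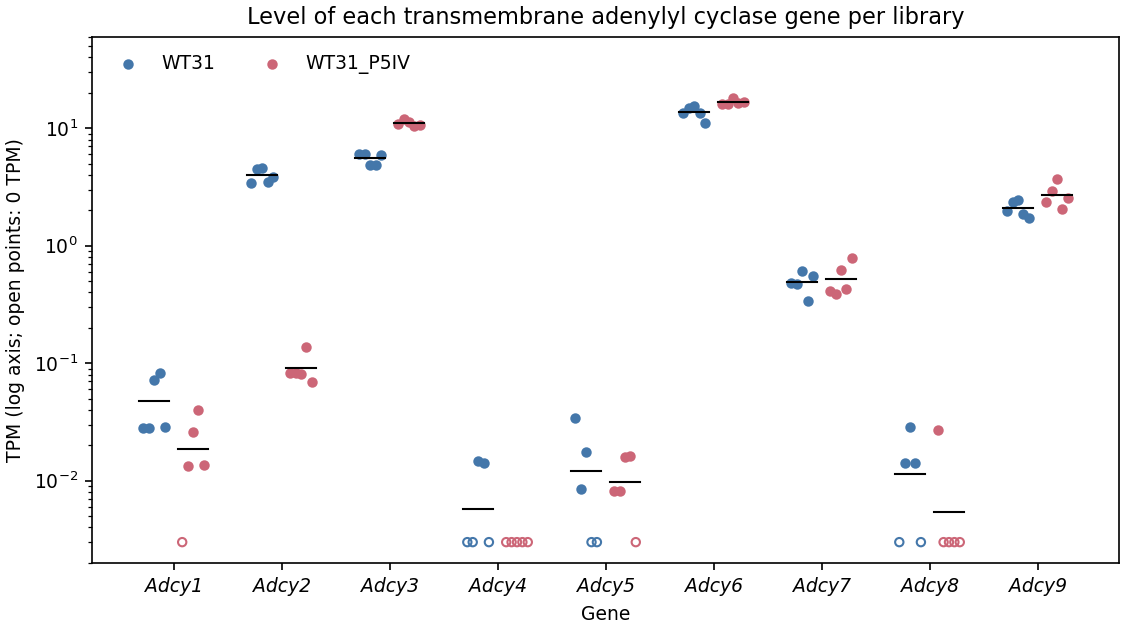
Level of each adenylyl cyclase gene in TPM (vertical log axis) in the 5 WT31 (blue) and 5 WT31_P5IV (red) libraries. Points are libraries, black lines are group means and open points at the bottom are libraries at 0 TPM. Adcy2 lies between 3.42 and 4.59 TPM in WT31 and between 0.0698 and 0.138 TPM in WT31_P5IV, while Adcy3 lies higher in WT31_P5IV.

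Of the 9 members, 5 passed the filter on low counts, and 4 of these 5 were called by edgeR's quasi-likelihood test at the same threshold, 3 higher and 1 lower in WT31_P5IV. Over all tested genes 68.5% were called, 34.6% as higher and 33.9% as lower. On log2(TPM + 0.1) in limma, without TMM scaling, log2 fold changes shifted by a median of −0.167. There 2915 genes were called higher and 5946 lower, and of the members 2 were called higher and 1 lower. For 3 of the tested members (2 higher, 1 lower) every library of one line lay beyond every library of the other, as was so for 54.1% of all tested genes (26.6% higher, 27.5% lower). Since the members were chosen on this comparison, nothing is read from these shares. Their median log2 fold change was 0.43, and that of all tested genes was 0.01. The 4 members that were not tested, Adcy1, Adcy4, Adcy5 and Adcy8, are described by their counts.

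Adcy2 (ENSMUSG00000021536.7, chr13:68620043-68999541 on GRCm38, minus strand) was the member that stood furthest apart. It had 235, 309, 308, 242 and 270 counts in WT31 replicates 1 to 5, and 6, 6, 6, 10 and 5 counts in WT31_P5IV replicates 1 to 5. Every WT31 library was far above every WT31_P5IV library. The parental mean was 10.6 ± 1.28 CPM and that of the subline 0.276 ± 0.0837 CPM (SD, n = 5 each), a log2 difference of −5.27 (SE 0.16) or 38.7-fold. From counting error alone, the ratio of the summed counts, 1364 to 33, has a 95% interval of 27.4 to 56.4. Of all 13620 tested genes, 35 had a lower log2 fold change. The WT31_P5IV libraries were all above the limit of 3 counts, which was 0.114 to 0.129 CPM, so a low level of Adcy2 RNA was still measured. In RNA from whole cultures, fewer cells with Adcy2 and less Adcy2 RNA in each cell cannot be told apart.

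Adcy3 (ENSMUSG00000020654.15, chr12:4133103-4213525, plus strand), which is best known from the primary cilium and from odour sensing, was the member with the largest difference in the other direction. It had 371, 390, 346, 337 and 319 counts in the WT31 libraries and 808, 768, 883, 717 and 766 in the WT31_P5IV libraries, and the groups did not overlap. The means were 13.7 ± 0.892 CPM in WT31 and 32.9 ± 2.05 CPM in WT31_P5IV, a log2 difference of 1.26 (SE 0.06). 416 tested genes had a higher log2 fold change. Of the words of 31 bases in Adcy3 transcripts, 20.1% also occur in transcripts of other genes, which are Gm34788 and Cenpo, a kinetochore gene that overlaps Adcy3 on the other strand. Cenpo had 14.7 CPM in WT31 and 14.4 CPM in WT31_P5IV.

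Adcy6 (ENSMUSG00000022994.9, chr15:98589973-98610076, minus strand) was the main isoform in both lines and differed less. It had 1062, 1123, 1140, 1046 and 926 counts in WT31 and 1297, 1333, 1493, 1177 and 1375 in WT31_P5IV. The CPM did not overlap, although the gap was narrow, from 44.7 CPM in the highest WT31 library to 49.6 CPM in the lowest WT31_P5IV library. The means were 41.3 ± 2.94 and 55.6 ± 3.91 CPM, a log2 difference of 0.43 (SE 0.06). Adcy6 shares 8.28% of its words of 31 bases with other genes, among them the antisense gene Gm29331, which was at 0.802 and 1.81 CPM.

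Adcy9 (ENSMUSG00000005580.11, chr16:4287529-4420498, minus strand) was higher in WT31_P5IV on average, but the groups overlapped. WT31 had 148, 178, 181, 144 and 133 counts, and WT31_P5IV had 181, 230, 304, 165 and 204. The lowest WT31_P5IV library, replicate 4, was at 6.95 CPM, below the highest WT31 library at 7.10 CPM. The means were 6.11 ± 0.771 and 9.02 ± 2.10 CPM, a log2 difference of 0.56 (SE 0.14). On the TPM scale Adcy9 was not among the called genes. Adcy9 shares no word of 31 bases with another gene.

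Adcy7 (ENSMUSG00000031659.13, chr8:88272403-88329962, plus strand), an isoform known for its expression in blood cells, overlapped between the lines, with 47, 41, 59, 34 and 55 counts in WT31 and 42, 32, 53, 44 and 63 in WT31_P5IV. The log2 difference was 0.08 (SE 0.19). Adcy1, a brain isoform, had 3, 5, 7, 11 and 6 counts in WT31 and 0, 1, 2, 3 and 1 in WT31_P5IV, and the groups met at 3 counts. The ratio of its summed counts on scaled library sizes, WT31 to WT31_P5IV, was 4.28, with a 95% interval of 1.86 to 11.5 from counting error.

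The last 3 members were at the limit of detection. Adcy5, known from heart and striatum, had 4, 1, 2, 0 and 0 counts in WT31 and 1, 1, 2, 2 and 0 in WT31_P5IV. Adcy8 had at most 3 counts in any library, and Adcy4 had 1 count in each of 2 WT31 libraries and 0 in every WT31_P5IV library. No difference was detectable for these genes at this depth.

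**Figure D2:**
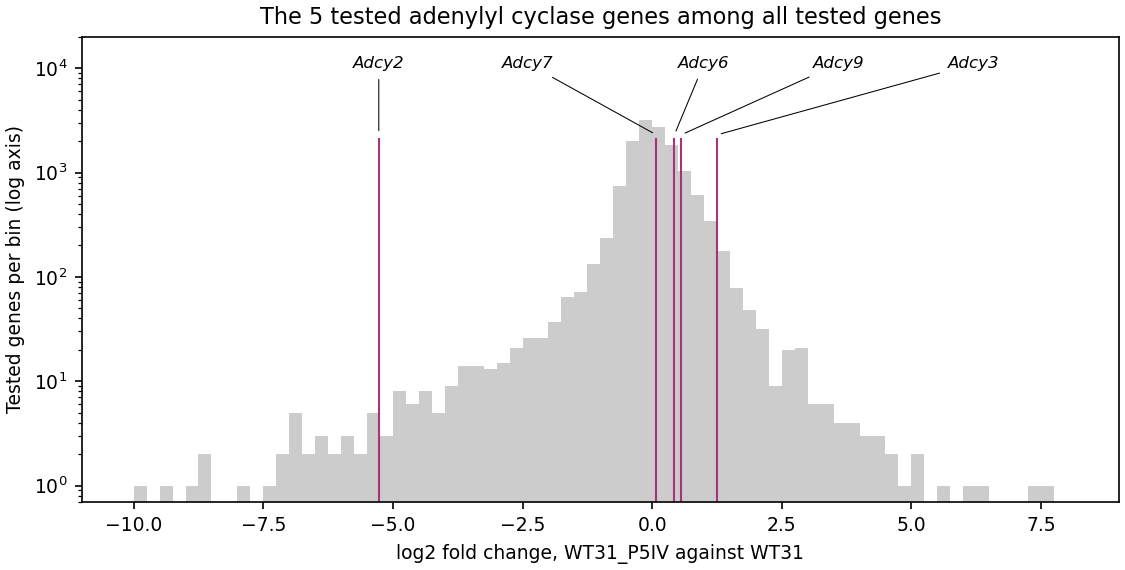
Log2 fold change of all 13620 tested genes (grey histogram, log axis of genes per bin), with the 5 tested adenylyl cyclase genes as vertical lines. Adcy2 at −5.27 lies in the lower tail, Adcy3 at 1.26 in the upper part, and Adcy6, Adcy9 and Adcy7 between 0.08 and 0.56.

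The summed level of the 9 isoforms was 25.8 ± 2.37 TPM in WT31 and 31.04 ± 1.69 TPM in WT31_P5IV (SD, n = 5 each). The highest WT31 library was at 28.3 TPM and the lowest WT31_P5IV library at 29.4 TPM. The lower Adcy2 of WT31_P5IV was not matched by a lower sum. Without Adcy2 the sum was 21.9 ± 1.94 TPM in WT31 and 30.9 ± 1.71 TPM in WT31_P5IV. As a log2 ratio of means, the summed level differed by 0.27 in TPM and by 0.43 in CPM.

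Adcy6 made up 52.9 ± 3.07% of the summed TPM in WT31 and 53.6 ± 1.503% in WT31_P5IV, a difference within the spread of the libraries. The share of Adcy3 was 21.6 ± 3.19% in WT31 and 35.7 ± 1.58% in WT31_P5IV. The share of Adcy2 was 15.3 ± 1.31% and 0.295 ± 0.0991%. Adcy9 held 8.003 ± 0.531% and 8.69 ± 1.56%, and Adcy7 held 1.90 ± 0.382% and 1.69 ± 0.530%. From WT31 to WT31_P5IV the share of Adcy2 differed by −15.0 percentage points and that of Adcy3 by 14.1.

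**Figure D3:**
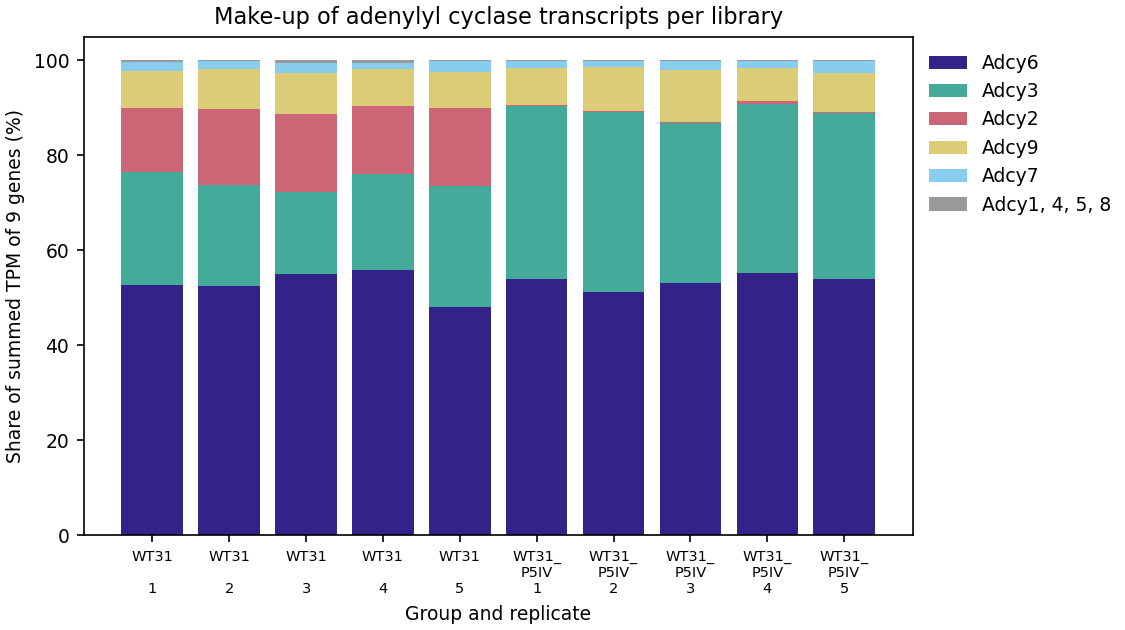
Share of each isoform in the summed TPM of the 9 genes (%), with a stacked bar for each of the 10 libraries. Adcy6 holds 47.99 to 55.8% in every library, and Adcy2 (red) is 13.5 to 16.6% in WT31 and at most 0.469% in WT31_P5IV.

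Grouped by their known regulation, the isoforms stimulated by beta-gamma subunits held 17.2 ± 1.56% of the summed TPM in WT31 and 1.98 ± 0.496% in WT31_P5IV. The isoforms stimulated by calcium and calmodulin held 21.8 ± 3.08% and 35.7 ± 1.58%, nearly all of it Adcy3. The isoforms inhibited by Gi and calcium held 52.9 ± 3.08% and 53.6 ± 1.51%. The ratio of Adcy6 to Adcy3 was 2.50 ± 0.500 in WT31 and 1.504 ± 0.0910 in WT31_P5IV. The effective number of isoforms, the inverse of the summed squared shares, was 2.80 ± 0.151 and 2.37 ± 0.0670.

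The TPM shares of Adcy3 varied more among WT31 libraries than its shares of CPM did. The length that links counts and TPM is estimated in each library. For Adcy3, with 8 annotated transcripts of 426 to 5621 bases, this implied length was 3253 to 4467 bases in WT31 and 3777 to 4411 bases in WT31_P5IV. For Adcy2, with 1 annotated transcript, it was 4238 to 4243 bases in all libraries. By shares of CPM, which do not use the length, Adcy3 held 18.6 ± 1.07% in WT31 and 32.9 ± 1.20% in WT31_P5IV.

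The nearest tested genes on either side of each tested member, leaving out genes that overlap it, were compared next, chosen by position after the members' values had been seen. Around Adcy2, Fastkd3 at a distance of 27.7 kb had a log2 fold change of 0.14 (SE 0.06), Mtrr at 37.9 kb had −0.08 (SE 0.05) and Tent4a, at 498 kb on the other side, had 0.05 (SE 0.05). The large difference of Adcy2 was not seen in the tested genes next to it. Around Adcy3, Dnajc27 at 22.5 kb had 0.24 (SE 0.07) and, on the other side, Gm48210 at 8.58 kb had 0.33 (SE 0.26). Around Adcy6, Ccnt1 at 19.1 kb had 0.27 (SE 0.07) and the calcium channel gene Cacnb3 at 20.8 kb had −0.57 (SE 0.09). Around Adcy9, the coactivator gene Crebbp at 73.5 kb had −0.29 (SE 0.06) and Srl at 59.7 kb had −1.79 (SE 0.10). Around Adcy7, Tent4b at 12.7 kb had −0.07 (SE 0.05) and Brd7 at 1.08 kb had −0.40 (SE 0.03).

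Adcy9 is on chromosome 16, where the 415 tested genes had a median log2 fold change of −0.42, with quartiles of −0.68 and −0.09. The medians of the other chromosomes that hold a tested member were −0.06 for chromosome 12 (Adcy3), −0.05 for chromosome 13 (Adcy2), 0.05 for chromosome 15 (Adcy6) and 0.03 for chromosome 8 (Adcy7). Adcy9, at 0.56, was on the other side of 0 from most tested genes of its chromosome.

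**Figure D4:**
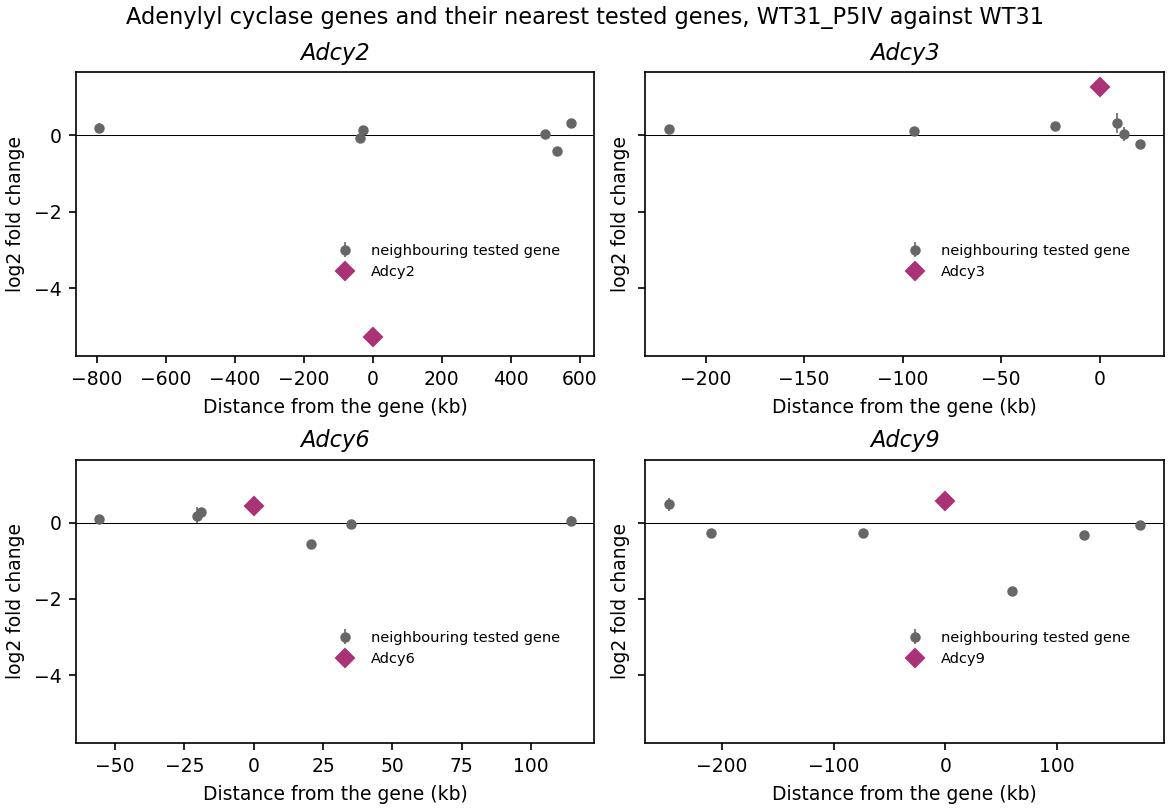
Log2 fold change (vertical axis, with standard error) of Adcy2, Adcy3, Adcy6 and Adcy9 (diamonds) and of the 3 nearest tested genes before and after each (grey points), by distance in kb. The genes around Adcy2 lie between −0.40 and 0.32, while Adcy2 is at −5.27.

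For the most abundant members, the genes with the most similar course over the 10 libraries were listed by the root mean square difference of their log2 CPM, each centred on its mean. The genes nearest to Adcy6 were Pkd2, at 0.0450, and Atp6v0a2, at 0.0454. Nearest to Adcy3 were Klhl30, at 0.0674, and Slc6a17, at 0.0697, and nearest to Adcy9 were Vcan, at 0.130, and Atp2b1, at 0.133. These values are dominated by the difference between the 2 lines.

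The rest of the cAMP pathway was followed in 138 genes of 11 lists. Of these, 89 were tested and 69 passed the test (77.5%, beside 68.5% of all tested genes), 25 higher and 44 lower in WT31_P5IV. On log2(TPM + 0.1) the calls were 14 higher and 50 lower. On counts their median log2 fold change was −0.15, and the median size of the change was 0.30, as over all tested genes. Adjusted p-values below are from edgeR's quasi-likelihood test with Benjamini-Hochberg adjustment over all 13620 genes, and levels are means in CPM of 5 libraries per line.

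Upstream of the cyclases, 19 of 30 genes of Gs-coupled receptors had 3 counts or fewer in every library, and 7 were tested, of which 4 rose and 2 fell (1 and 2 with TPM). The melanocortin receptor gene Mc1r was by far the most abundant and fell slightly, from 362 ± 13.0 to 308 ± 10.1 CPM (log2 fold change −0.23, SE 0.04, adjusted p = 5.1e-05). The adenosine receptor gene Adora2a fell from 3.29 ± 0.448 to 0.534 ± 0.183 CPM (−2.62, SE 0.20, adjusted p = 2.21e-08). Vipr2, a receptor for vasoactive intestinal peptide, rose from 0.664 ± 0.0810 to 1.70 ± 0.303 CPM (1.35, SE 0.17, adjusted p = 5.98e-06). The orphan receptor gene Gpr161, whose product acts at the primary cilium, rose by 0.36 (SE 0.07, adjusted p = 5.69e-04), with overlapping groups and a call that was lost with TPM.

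Among 9 genes of Gs and Gi class alpha subunits and their chaperones, 7 were tested, of which 1 rose and 2 fell (1 and 5 with TPM). Gnas, which encodes the stimulating alpha subunit, had 1015 ± 51.1 CPM in WT31 against 996 ± 39.7 CPM in WT31_P5IV (−0.03, SE 0.04, adjusted p = 0.587). The inhibiting subunit gene Gnai2 was at 585 and 595 CPM (0.02, SE 0.05, adjusted p = 0.708), and with TPM in place of counts both genes were called lower. Gnai3 fell from 125 to 92.0 CPM (−0.45, SE 0.05, adjusted p = 3.87e-06) and Gnao1 from 34.01 to 18.6 CPM (−0.87, SE 0.05, adjusted p = 2.94e-09). Gnai1 had 0 counts in all 10 libraries.

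Of 17 genes of beta and gamma subunits, which stimulate Adcy2, Adcy4 and Adcy7, 11 were tested, of which 1 rose and 8 fell, on counts and on TPM. Gng2 fell from 42.7 ± 1.16 to 19.2 ± 0.991 CPM (−1.15, SE 0.04, adjusted p = 2.07e-11) and Gng12 from 380 to 251 CPM (−0.60, SE 0.04, adjusted p = 9.27e-09). Gng11 rose from 19.3 to 29.6 CPM (0.62, SE 0.06, adjusted p = 2.45e-07). Of the calmodulin genes, whose product links calcium to Adcy3, Calm2 fell from 380 to 331 CPM (−0.20, SE 0.04, adjusted p = 2.87e-04). Calm3 did not pass the test on counts (0.08, SE 0.05, adjusted p = 0.138), but was called lower with TPM. Cap1, an actin regulator named for its binding to adenylyl cyclase in yeast, fell by 0.33 (SE 0.04, adjusted p = 1.17e-06), while the soluble cyclase gene Adcy10 was at 0.0626 and 0.157 CPM and was not tested.

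The phosphodiesterases break cAMP down, and of their 16 genes 11 were tested, of which 4 rose and 4 fell (1 and 4 with TPM). Pde4a fell from 1.36 ± 0.286 to 0.394 ± 0.176 CPM (−1.79, SE 0.26, adjusted p = 2.70e-05), Pde8a from 47.2 ± 1.35 to 23.9 ± 0.886 CPM (−0.99, SE 0.04, adjusted p = 3.72e-11) and Pde4d from 42.6 ± 2.44 to 22.9 ± 1.62 CPM (−0.89, SE 0.05, adjusted p = 2.93e-09). Pde4b fell by 0.18 (SE 0.06, adjusted p = 0.00992), with overlapping groups. Pde1c, which calcium and calmodulin activate, rose from 2.16 to 3.55 CPM (0.72, SE 0.14, adjusted p = 3.12e-04). Pde3a rose from 39.1 to 50.4 CPM (0.36, SE 0.07, adjusted p = 3.28e-04), a call that was lost with TPM. Pde3b was at 18.7 and 20.1 CPM (0.10, SE 0.07, adjusted p = 0.197), and Pde4c had too few counts to be tested.

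**Figure D5:**
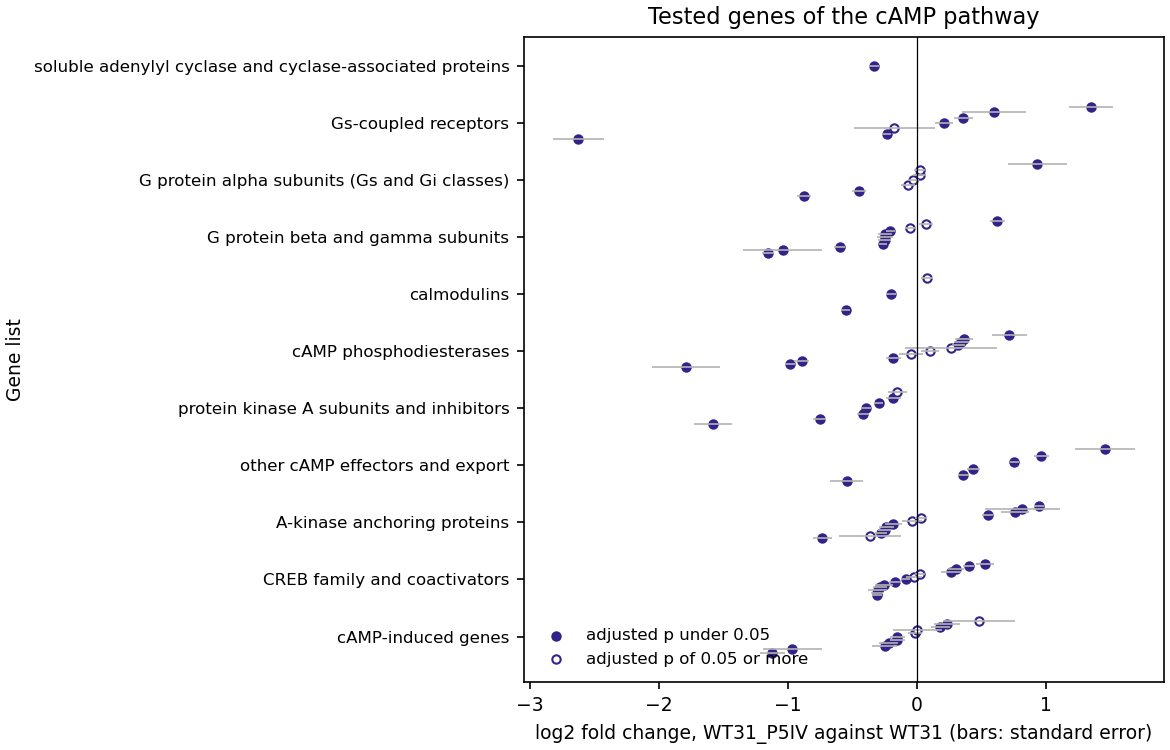
Log2 fold change (horizontal axis, bars are the standard error) of the 89 tested genes of the cAMP pathway by list. Filled points had an adjusted p under 0.05. All 6 called genes of the protein kinase A list lie below 0, and 5 of 6 genes of the list of other cAMP effectors lie above it.

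Downstream, 7 of 9 genes of protein kinase A subunits and inhibitors were tested, of which 6 fell and 0 rose (7 and 0 with TPM). Prkar2b fell from 57.0 ± 1.56 to 33.9 ± 2.88 CPM (−0.75, SE 0.05, adjusted p = 1.05e-08), Prkacb from 141 to 105 CPM (−0.42, SE 0.05, adjusted p = 2.42e-06) and Prkar1a from 422 to 344 CPM (−0.30, SE 0.03, adjusted p = 1.10e-06). The catalytic subunit gene Prkaca fell by 0.18 (SE 0.06, adjusted p = 0.0098), with overlapping groups. Not all of these genes act in 1 direction, since regulatory subunits restrain the catalytic ones and Pkib, which fell from 2.24 to 0.751 CPM (−1.58, SE 0.15, adjusted p = 2.58e-07), encodes an inhibitor of the kinase.

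Of 10 genes of other cAMP effectors and of cAMP export, 6 were tested, of which 5 rose and 1 fell, on counts and on TPM. The channel gene Hcn2 rose from 17.8 ± 1.35 to 34.7 ± 1.85 CPM (0.97, SE 0.06, adjusted p = 1.99e-09) and Hcn3 from 0.601 to 1.65 CPM (1.46, SE 0.23, adjusted p = 5.65e-05). The other 3 that rose were Rapgef3 and Rapgef4, which encode the cAMP-activated exchange factors Epac1 and Epac2, and the exporter gene Abcc4. They are outside the rule for named genes and were named to complete the count. Rapgef3 rose from 108 to 182 CPM (0.76, SE 0.03, adjusted p = 8.83e-11).

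Of 15 genes of A-kinase anchoring proteins, which tether the kinase within the cell, 12 were tested, of which 4 rose and 5 fell (3 and 5 with TPM). Akap1 rose from 43.2 to 83.3 CPM (0.95, SE 0.04, adjusted p = 6.68e-11) and Akap9 from 50.5 to 85.7 CPM (0.76, SE 0.11, adjusted p = 1.77e-05). Akap12 fell from 19.0 to 11.5 CPM (−0.73, SE 0.07, adjusted p = 4.00e-07) and Akap2 from 263 to 217 CPM (−0.28, SE 0.05, adjusted p = 8.90e-05).

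All 13 genes of the CREB family and its coactivators were tested, of which 4 rose and 7 fell (2 and 8 with TPM). Creb1 fell from 61.1 to 51.2 CPM (−0.25, SE 0.07, adjusted p = 0.00352), with overlapping groups. Crem and Atf1 each fell by 0.31 (SE 0.05 and 0.04, adjusted p = 5.14e-05 and 4.37e-06). Creb5 rose from 7.01 to 10.1 CPM (0.53, SE 0.07, adjusted p = 1.01e-05) and the coactivator gene Crtc2 from 51.9 to 68.6 CPM (0.40, SE 0.04, adjusted p = 1.08e-06).

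Of 13 genes known to be induced by cAMP, 11 were tested, of which 2 rose and 6 fell (0 and 6 with TPM, 2 and 3 with upper-quartile scaling). The immediate early genes Egr1 and Fos, which other pathways induce as well, fell from 7.48 to 3.44 CPM (−1.12, SE 0.10, adjusted p = 1.07e-07) and from 1.34 to 0.684 CPM (−0.97, SE 0.23, adjusted p = 0.00168). Dusp1 (0.24, SE 0.10, adjusted p = 0.0469) and Ppargc1a (0.18, SE 0.07, adjusted p = 0.0409) rose, but their groups overlapped and their calls were lost in 8 and 7 of the 10 fits that left out 1 library, with adjusted p of up to 0.144 and 0.134. Mitf, the pigment cell regulator that CREB can induce, had 346 ± 33.3 CPM in WT31 against 342 ± 11.8 CPM in WT31_P5IV (−0.01, SE 0.06, adjusted p = 0.840), and was called lower on TPM (−0.20, adjusted p = 0.0454 in limma).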

How the data were processed

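RNA-seq of 5 WT31 and 5 WT31_P5IV cultures was used. Per the submitters' processing notes and methods, the authors trimmed reads with Trim Galore 0.6.4, estimated transcript abundance with kallisto against GRCm38.p6 and summed it per gene. The authors deposited 1 table of estimated counts and 1 of TPM (scaled for depth and transcript length) for each library. Whether counting used the strand is not given in the sources used here. Of the 55385 identifiers, 55144 were matched to GENCODE M21, without the version suffix. Replicate numbers are those of the sample titles. The file labels give other numbers to WT31 replicates 3 to 5. The replicate block and the comparison of same-numbered libraries rest on the title numbers.

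Estimated counts were rounded, filtered with filterByExpr and scaled by TMM. The lines were compared by edgeR's quasi-likelihood F test (edgeR 4.0.16, R 4.3.3), p-values of all 13620 tested genes were adjusted together by Benjamini-Hochberg, and 0.05 was the threshold. Standard errors were derived from the log2 fold change and its F statistic. On simulated data of 13465 genes, of which 200 were changed, 93% of changes of 1 and 98% of changes of 2 on the log2 scale were found, with 12 false calls. Intervals of count ratios are exact binomial and, like the limit of 3 counts, cover counting error only. Implied lengths are the counts over TPM, scaled by 463 genes with a single transcript.

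The members and gene lists were chosen with earlier results of these data known. Named pathway genes are, per list, up to 2 increases and 2 decreases of largest size among called genes with a mean of at least 1 CPM, and a set of core genes (Mc1r, Gnas, Gnai1 to Gnai3, Prkaca, Prkacb, Prkar1a, Prkar2b, Pde3a, Pde3b, Pde4a to Pde4d, Creb1 and Mitf). A few listed genes are counted but not reported singly here. Alternatives were DESeq2 1.42.0, limma 3.58.1 with voom, upper-quartile scaling, other filters, the replicate number as a block, limma on log2(TPM + 0.1) and log2(TPM + 1), and leaving out each library. Other steps used Python 3.11.15, numpy 2.4.6, pandas 2.3.3 and scipy 1.17.1.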

Additional observations from a re-analysis of the deposited data

Results flagged for a closer look

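In each group of 5 libraries, the gap of the highest or lowest library to its neighbour was set against the whole range, with Dixon's critical value of 0.71. Of 108 groups examined, 9 passed it, and chance alone gives about 1 in 20. Adcy2 was at 0.421 CPM in WT31_P5IV replicate 4, while the other 4 libraries of that line were at 0.207 to 0.257 CPM. The share of Adcy2 in the summed TPM stood apart in the same library, at 0.469% against 0.227 to 0.278%. The library had 10 counts of Adcy2 and the others 5 or 6. Adora2a was at 2.50 CPM in WT31 replicate 2, with the other WT31 libraries at 3.41 to 3.56 CPM. Vipr2 was at 2.23 CPM in WT31_P5IV replicate 2, with the others at 1.49 to 1.64 CPM. Gnai2 was at 557 CPM in WT31_P5IV replicate 5, with the others at 600 to 613 CPM, and Pde4d was at 25.7 CPM in the same library, with the others at 21.6 to 22.8 CPM. Gng11 was at 32.9 CPM in WT31_P5IV replicate 4, with the others at 28.5 to 29.2 CPM. Pde3b was at 16.3 CPM in WT31 replicate 5, with the others at 18.9 to 19.8 CPM. Crem was at 30.8 CPM in WT31 replicate 1, with the others at 27.96 to 28.5 CPM.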

How the results depend on the processing

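Over the alternatives that kept all libraries, 8622 to 10163 genes were called, and 8965 to 9444 with 1 library left out. On log2(TPM + 0.1) the split was 2915 higher to 5946 lower, beside 4709 to 4618 on counts, and on log2(TPM + 1) it was 2910 to 5957. The TPM scale shifted log2 fold changes by a median of −0.167 with the smaller pseudocount, and the cause was not tested. Of the Adcy members, 3 of 5 were called on either TPM scale (65.1% of all tested genes), where Adcy9 was not called (log2 fold change 0.36 and 0.26). With at least 10 counts in every library, a filter that Adcy2 did not pass, 3 of 4 were called (69.8% of all). With every gene of at least 1 count tested, 5 of 9 were called (32.5% of all). Under the other alternatives 4 of 5 were called (65.1 to 68.9% of all). Of the pathway genes, 61 to 71 were called over all alternatives.

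Across alternatives, 860 values of 48 named genes were refitted: 817 kept their direction and side of the threshold, 27 lost the call, 4 gained it and 12 reversed, all of the latter in genes without a call on counts. Without single libraries, Adcy7 ranged from −0.051 to 0.18, Gnai2 from −0.024 to 0.046 and Mitf from −0.062 to 0.021. With upper-quartile scaling Gnas was at 0.00098 and Mitf at 0.015. Gnai2 was at −0.032 without the filter and at −0.15 on both TPM scales (adjusted p = 0.00494 and 0.00478 in limma), and Pde3b was at −0.16 and −0.14 there. The log2 ratio of the summed Adcy level was 0.27 in TPM, 0.41 in TPM rescaled by TMM and 0.43 in CPM, and the share of Adcy2 differed by −14.1 points in CPM and −15.0 in TPM. Rescaling leaves the shares as they are.

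With the replicate number as a block, 9380 genes, 4 members and 67 pathway genes were called. Deviations of same-numbered libraries correlated by −0.096 to 0.178, with 1 of 5 pairs over 0.1, and 4 of 10 libraries correlated best with their own number, so the numbers were not taken to pair the libraries. Levels under 0.114 to 0.129 CPM are beyond the depth of these libraries.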
